A study of Homo sapiens with 24 samples.

Results

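H3K27me3, the trimethylation of lysine 27 on histone H3, was profiled by chromatin immunoprecipitation and sequencing in TGFβ-treated PANC-1 cells with and without depletion of PHF13. The libraries were the 4 of the 24 samples of the series labelled H3K27me3 with siControl+TGFβ or with siPHF13+TGFβ, 2 libraries each, and they were chosen by these labels alone. PANC-1 is an established line from a human pancreatic ductal carcinoma. Cells of both groups were transfected with siRNA through RNAiMAX, a control siRNA in one group and siRNA against PHF13 in the other. From the next day, both groups received TGFβ at 10 ng/ml for 48 h, which the labels give as the means to induce epithelial-mesenchymal transition (EMT). Both groups therefore carry TGFβ and a transfection, and they differ in the siRNA. The labels number the libraries of a group 1 and 2 and do not say whether these came from separate cultures, so the spread between them may be technical. The 2 H3K27me3 libraries of siControl cells without TGFβ were used only as an outside reference for which promoters carry the mark, and their lists differed in length, with 98211 peaks over 105.03 Mb in replicate 1 and 165717 peaks over 292.8 Mb in replicate 2.

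H3K27me3 is deposited by Polycomb repressive complex 2 through its catalytic subunit EZH2, and it lies over silent developmental genes in broad domains. It is removed or kept away where promoters are active and acetylated at the same lysine, as H3K27ac. Promoters that carry H3K27me3 together with H3K4me3, the mark of promoter starts, are called poised, and PHF13 is a PHD finger protein that binds H3K4me2 and H3K4me3. The comparison therefore asks which genes and domains gain or lose the Polycomb mark when this reader is depleted during TGFβ treatment.

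What was deposited is a list of broad peaks for each library, with no reads, so sequencing depth is unknown and no interval that needs it is given. A promoter was the 6001 bp within 3 kb of a coding gene's annotated 5′ end, and it was called marked when peaks of a library covered at least 500 bp of it. Lost promoters were marked in both siControl+TGFβ libraries and had 0 bp in both siPHF13+TGFβ libraries, and gained promoters were the reverse. Positions are hg19.

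Some facts about these lists come before any direction. Peaks in the lists labelled siPHF13+TGFβ bear names with NCT, the study's abbreviation for siControl+TGFβ, and peaks in the lists labelled siControl+TGFβ bear names with 3AT. Groups were taken from the labels, which the peak numbers listed by the study follow, and every direction below reverses if the labels were exchanged. The list of siPHF13+TGFβ replicate 1 was short, with 59573 peaks against 118061 and 111490 in siControl+TGFβ and 107730 in siPHF13+TGFβ replicate 2, and the study lists more peaks for this library than the deposited list holds. The siPHF13+TGFβ list numbered 1 was also the shortest of the 6 for H3K4me3 and of the 6 for H3K27ac. Its median peak width was 540 bp, while siControl+TGFβ had 702 and 813 bp, and replicate 2 had 843 bp. Because of this, each replicate is given apart, and values without replicate 1 stand beside those with it.

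The lists mostly behaved as H3K27me3 lists at genes of known state, least clearly at HOX genes. Of 39 HOX promoters, 14 and 12 (35.9% and 30.8%) were marked in siControl+TGFβ, against 7 and 11 in siPHF13+TGFβ. Among all coding promoters, 25.2% and 25.7% were marked in siControl+TGFβ. Of 103 homeobox genes outside the HOX clusters, which pattern the embryo, 74 and 75 promoters were marked in siControl+TGFβ, against 51 and 72 in siPHF13+TGFβ. Of 81 ribosomal protein genes, which every cell transcribes, 4 and 3 were marked in siControl+TGFβ, against 2 and 2 in siPHF13+TGFβ. Of 20 keratin and duct genes chosen as active in PANC-1 cells, 2 and 1 were marked in siControl+TGFβ, then 0 and 1. The promoters of PHF13 and EZH2 had 0 bp of H3K27me3 in all 4 libraries. An siRNA acts on the transcript, so the PHF13 promoter does not measure the depletion.

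The genome covered by the mark was much the same in 3 of the 4 libraries. Peaks covered 166.8 and 191.2 Mb in siControl+TGFβ, 48.6 Mb in siPHF13+TGFβ replicate 1 and 188.8 Mb in replicate 2. Replicate 2 thus lay between the siControl+TGFβ libraries, and replicate 1 lay far below both. Coding promoters held 14.6 and 15.5 Mb in siControl+TGFβ and 5.52 and 15.1 Mb in siPHF13+TGFβ. Coding gene bodies outside promoters held 59.3 and 67.5 Mb, then 15.3 and 66.3 Mb. Intergenic sequence held 67.4 and 78.5 Mb, then 20.3 and 77.6 Mb. The difference of the group means in log2 covered length was −0.90, the SD within groups being 0.98 (two-sided p = 0.667 by exact permutation of the libraries). Leaving out replicate 1, it came to 0.08. The smallest p that an exact permutation of 2 libraries against 2 allows is 0.333.

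**Figure D1:**
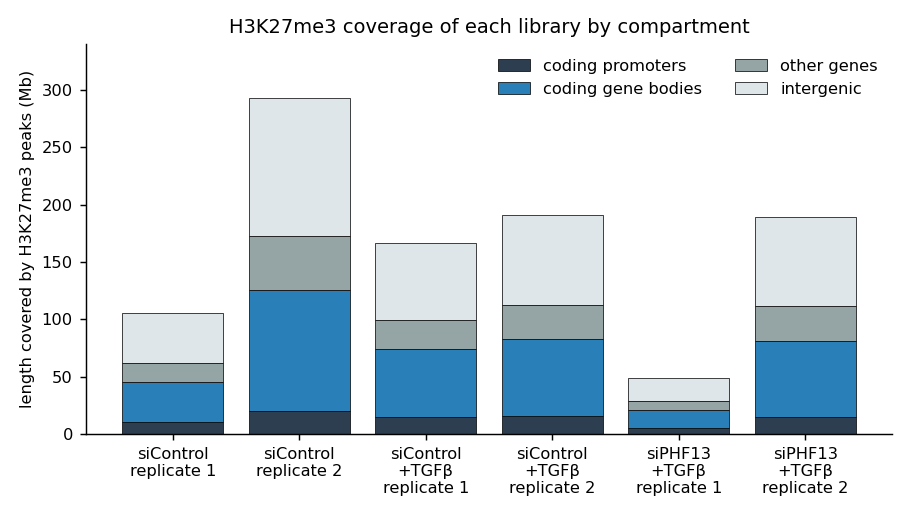
Length of the genome under H3K27me3 peaks (Mb) in each library, stacked by compartment, with the siControl libraries without TGFβ on the left. In siPHF13+TGFβ replicate 1 the bar ends at 48.6 Mb, and in replicate 2 at 188.8 Mb, between the 166.8 and 191.2 Mb of siControl+TGFβ.

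How the covered length was shared out differed less. Coding promoters took 8.77% and 8.11% of it in siControl+TGFβ, 11.4% in siPHF13+TGFβ replicate 1 and 7.999% in replicate 2, so the siPHF13+TGFβ libraries lay on either side (difference 1.24 percentage points, exact permutation p = 1). With every list shortened to the same covered length, the promoter share was 15.2% and 14.9% in siControl+TGFβ, 11.4% in replicate 1 and 15.2% in replicate 2, and the difference turned to −1.74 points. Coding gene bodies took 35.6% and 35.3%, then 31.5% and 35.1%, a difference of −2.12 points in which both siPHF13+TGFβ libraries were lower (exact permutation p = 0.333, the smallest possible). Intergenic sequence took 40.4% and 41.0%, then 41.7% and 41.1%, 0.70 points higher (exact permutation p = 0.333). For comparison, promoters make up 3.48% of the genome, gene bodies 40.1% and intergenic sequence 41.6%. Without replicate 1 the 3 differences were −0.44, −0.34 and 0.38 points.

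Most of the length that replicate 1 did cover was shared with the other libraries. Of its covered bp, 71.2% and 79.0% lay under peaks of siControl+TGFβ replicates 1 and 2, and 78.9% under peaks of siPHF13+TGFβ replicate 2. The siControl+TGFβ libraries shared 67.7% and 59.0% of their own lengths with each other. Replicate 2 shared 59.0% and 66.9% of its length with them, close to the values of the siControl+TGFβ pair. The bases that both siControl+TGFβ libraries covered and replicate 1 also covered held 17.0 CpG dinucleotides per kb, against 15.1 where replicate 1 had no peak. For replicate 2 these values were 16.1 and 13.7, so the bases without a peak were poorer in CpG in both replicates, and the whole genome has 9.85.

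At promoters, few genes met the rule for loss or gain in both siPHF13+TGFβ libraries. Of 20136 coding promoters, 5072 and 5172 were marked in siControl+TGFβ, against 2834 and 5063 in siPHF13+TGFβ, and 2650 were marked in all 4. Promoters lost in both siPHF13+TGFβ libraries numbered 83 (0.412% of all promoters), and those gained in both numbered 7 (0.0348%). Taken alone against both siControl+TGFβ libraries, replicate 1 had lost 1170 (5.81%) and gained 24 (0.119%), so that its losses far outnumbered its gains. Replicate 2 alone had lost 108 (0.536%) and gained 99 (0.492%). Here a loss asks for the mark in both siControl+TGFβ libraries and a gain in a single library, so the counts are not alike. When every list was shortened to its strongest peaks until it covered the same length as replicate 1, the counts in both libraries turned to 23 lost and 147 gained. Marked promoters then numbered 2079 and 1902 in siControl+TGFβ, 2834 in replicate 1 and 1922 in replicate 2, so replicate 1 went from the fewest to the most. With lists of equal peak number, 4196 and 4337 were marked in siControl+TGFβ, then 2834 and 4288. At a −log10 q of at least 2 these were 2294 and 2579, then 954 and 2358, so replicate 1 stayed the fewest at both. At equal covered length, mean coverage per promoter was 390 and 381 bp in siControl+TGFβ, then 291 and 389 bp. The order thus depended on how the lists were shortened and on the measure. Values below are from the lists as deposited unless stated. In limma, fitted to 4911 promoters with a mean of at least 500 bp, 0 promoters were lower (0%) and 0 higher (0%) at an adjusted p under 0.05, with 142 lower and 4 higher at an unadjusted p under 0.05. The residual SD of a median promoter was 0.97 on the log2 scale, and the median change was −0.86. On simulated data at this spread, limma recovered 0% of promoters changed by 2 on the log2 scale. The 0 calls therefore do not show that promoters were unchanged.

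The limma result turned on which siPHF13+TGFβ library was used. Without replicate 1, 0 promoters passed in either direction and the median change was 0.02. Without replicate 2, 1754 of 4773 promoters were lower (36.7%) and 0 higher, with a median change of −1.76. That fit has a single siPHF13+TGFβ library, which is assumed to vary as the siControl+TGFβ libraries do, so it compares replicate 1 alone with siControl+TGFβ.

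The sequences just upstream of a few of these genes are printed to show how lost, gained and kept promoters differ in CpG content, since Polycomb domains are known to gather at CpG-rich starts. Each run is the 250 bases before the annotated start, 5′ to 3′ in the direction of the gene, from GRCh37, with every CpG in capitals. ZNF683 (chr1:26701014-26701263, minus strand) was among the lost promoters with the widest coverage in siControl+TGFβ. ROS1 (chr6:117747106-117747355, minus) and CXCL5 (chr4:74864395-74864644, minus) were the first of the gained ones. PCDHB8 (chr5:140557121-140557370, plus) and PAPLN (chr14:73703955-73704204, plus) are genes the study examined and were kept.
ZNF683: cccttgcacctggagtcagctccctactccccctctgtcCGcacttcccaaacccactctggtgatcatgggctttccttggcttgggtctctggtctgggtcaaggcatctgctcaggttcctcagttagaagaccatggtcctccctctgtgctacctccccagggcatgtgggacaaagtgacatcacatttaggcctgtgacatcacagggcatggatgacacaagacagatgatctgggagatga
ROS1: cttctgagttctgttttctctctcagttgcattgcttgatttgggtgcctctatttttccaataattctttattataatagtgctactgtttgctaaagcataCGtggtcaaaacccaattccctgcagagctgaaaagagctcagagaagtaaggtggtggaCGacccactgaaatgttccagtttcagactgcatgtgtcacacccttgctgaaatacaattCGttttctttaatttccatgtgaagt
CXCL5: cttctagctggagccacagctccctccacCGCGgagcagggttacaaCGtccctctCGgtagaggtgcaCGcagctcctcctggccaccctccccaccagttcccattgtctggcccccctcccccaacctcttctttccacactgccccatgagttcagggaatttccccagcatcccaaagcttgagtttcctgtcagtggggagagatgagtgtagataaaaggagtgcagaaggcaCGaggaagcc
PCDHB8: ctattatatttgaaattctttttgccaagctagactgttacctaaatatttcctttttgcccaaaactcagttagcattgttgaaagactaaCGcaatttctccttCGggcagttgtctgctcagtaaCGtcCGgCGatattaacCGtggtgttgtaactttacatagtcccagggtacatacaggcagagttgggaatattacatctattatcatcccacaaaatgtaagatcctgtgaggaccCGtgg
PAPLN: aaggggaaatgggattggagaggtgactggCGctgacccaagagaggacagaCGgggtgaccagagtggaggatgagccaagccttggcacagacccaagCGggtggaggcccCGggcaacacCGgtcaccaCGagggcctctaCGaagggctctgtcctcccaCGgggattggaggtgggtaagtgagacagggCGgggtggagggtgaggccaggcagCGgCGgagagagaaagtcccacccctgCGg
These hold 1 CpG in ZNF683, 3 in ROS1, 6 in CXCL5, 7 in PCDHB8 and 12 in PAPLN.

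Over whole classes, sequence followed the same order only in part. Within 500 bp of the start, the median ratio of observed to expected CpG was 0.365 in the 83 lost promoters, 0.504 in the 7 gained ones, 0.658 in the 2650 kept ones and 0.686 in all coding promoters. A ratio of at least 0.6, used here for CpG-rich promoters, was found at 36.1% of lost, 28.6% of gained, 56.5% of kept and 59.7% of all promoters. To look at this without the lists being compared, promoters marked in both siControl libraries without TGFβ were split by the same ratio. Of 2099 CpG-rich ones, 94.0% and 95.8% were marked in siControl+TGFβ, 70.2% in siPHF13+TGFβ replicate 1 and 95.8% in replicate 2. Of 1894 CpG-poor ones, 92.2% and 94.9% were marked, then 58.9% and 94.1%. CpG-poor promoters were thus marked less often than CpG-rich ones in replicate 1, with a smaller gap in the other libraries, and this difference between gaps was not tested.

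The lost promoters with the highest coverage were led by PTPN7, ZNF683, PSG3 and CDH16. PTPN7 (chromosome 1, 202116141 to 202130716), a tyrosine phosphatase of blood cells, had 3538 and 2379 bp in siControl+TGFβ. ZNF683 (chromosome 1, 26688125 to 26701013), a transcription factor of tissue-resident lymphocytes, had 2177 and 2317 bp. CDH16 (chromosome 16, 66942025 to 66952820), the kidney cadherin, had 2005 and 2285 bp. All 3 had 0 bp in both siPHF13+TGFβ libraries, as the rule requires, and no H3K4me3 peak in any of the TGFβ-treated libraries. PSG3 (chromosome 19, 43225790 to 43244633), a pregnancy-specific glycoprotein of the placenta, had 2310 and 2170 bp, and since this family consists of near-identical copies its reads are uncertain.

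The next of them include developmental and signalling genes. ALDH1A2 (chromosome 15, 58245622 to 58790065), which makes retinoic acid, had 1408 and 1562 bp in siControl+TGFβ. IRX6 (chromosome 16, 55358115 to 55364668), an Iroquois homeobox factor, had 1416 and 1379 bp. SEMA6C (chromosome 1, 151104161 to 151119107), a semaphorin of axon guidance, had 1860 and 1283 bp. METTL7A had 1769 and 1415 bp, CAPRIN2, an RNA-binding protein gene, 1608 and 1359 bp, and INPP5J, an inositol phosphatase gene, 1218 and 1626 bp. CAPRIN2 and SEMA6C differed from the others in having H3K4me3 peaks in all 4 TGFβ-treated libraries. The limma changes of these 10 promoters ran from −3.90 to −4.91 with standard errors of 0.56 to 0.59, and each had an adjusted p of 0.775.

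Most lost promoters were weakly covered to begin with. The lower of the siControl+TGFβ values had a median of 840 bp over the 83, at least 1000 bp in 21 and at least 2000 bp in 4. In the untreated libraries, 18 were marked in siControl replicate 1 and 69 in replicate 2, whose list is the longer. At kept promoters these counts were 2516 and 2644 of 2650. H3K4me3 peaks were found at 36 and 37 of the 83 in siControl+TGFβ and at 34 and 35 in siPHF13+TGFβ. H3K27ac peaks, which mark active promoters, were at 21 and 14 and then at 1 and 21, and the value of 1 belongs to replicate 1, whose H3K27ac list was also short. In replicate 2, where the mark was called absent, H3K27ac was thus not above the siControl+TGFβ libraries.

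All 7 gained promoters had at most 836 bp in the lower of the siPHF13+TGFβ libraries. ROS1 (chromosome 6, 117608516 to 117747105), a receptor tyrosine kinase gene, had 967 and 836 bp in siPHF13+TGFβ. CXCL5 (chromosome 4, 74861359 to 74864394), a chemokine that attracts neutrophils, had 727 and 742 bp. CASZ1 (chromosome 1, 10696661 to 10856707), a zinc finger transcription factor gene, had 857 and 642 bp. VTN (chromosome 17, 26694305 to 26700110) encodes vitronectin, an adhesive protein of plasma and matrix, and had 620 and 727 bp. SLC51B (chromosome 15, 65337725 to 65345735), a subunit of a bile acid transporter, had 747 and 597 bp. NAP1L2 (chromosome X, 72432135 to 72434687), of the nucleosome assembly protein family, had 557 and 2095 bp, and PDE11A (chromosome 2, 178487972 to 178973066), a phosphodiesterase gene, had 550 and 1913 bp. Of the 7, only NAP1L2 and PDE11A reached the mean coverage needed for limma, where both had an adjusted p of 0.797. All had 0 bp in both siControl+TGFβ libraries by the rule. Outside it, all 7 had some coverage in siControl replicate 2 without TGFβ, from 281 to 1213 bp, and 5 of them were marked there, so each had a peak in that untreated library.

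**Figure D2:**
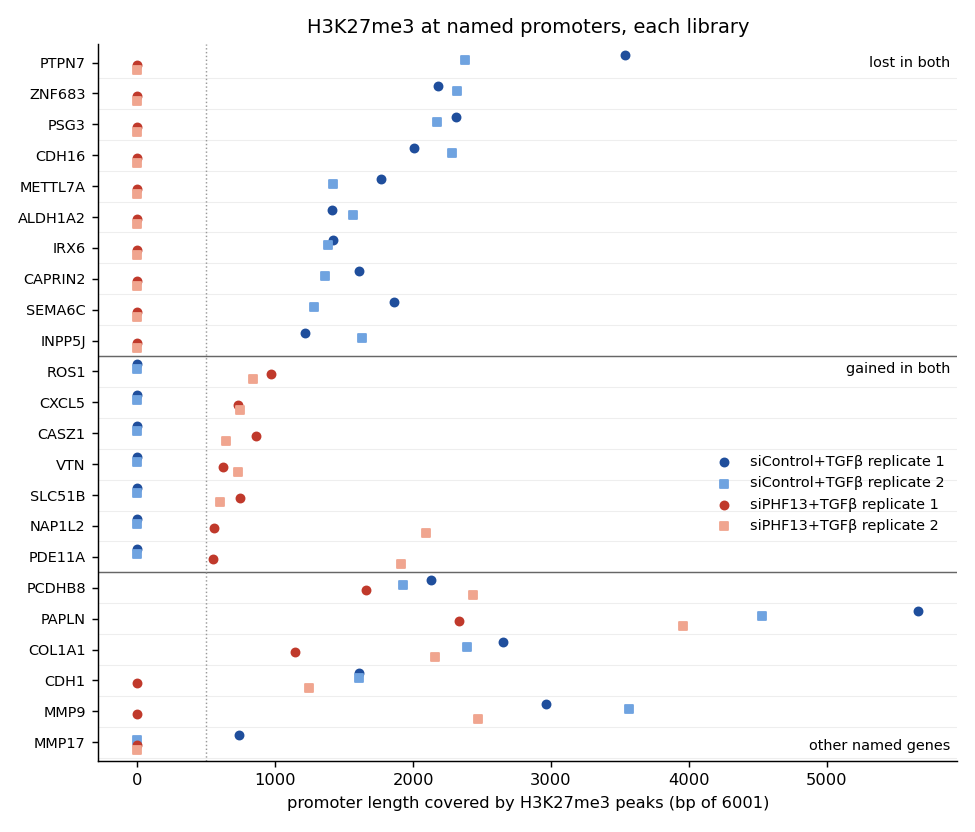
Length of the promoter under H3K27me3 peaks (bp of 6001) for named genes in each TGFβ-treated library, with the marking threshold of 500 bp dotted. Lost promoters lie at 1218 bp or more in siControl+TGFβ and at 0 in siPHF13+TGFβ, gained ones between 550 and 2095 bp in siPHF13+TGFβ, and at CDH1 and MMP9 only siPHF13+TGFβ replicate 1 is at 0 among the 4.

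Genes that the study followed are given whatever their values. PAPLN (chromosome 14, 73704205 to 73741348), a matrix protein gene, had 5666 and 4531 bp in siControl+TGFβ, 2333 bp in siPHF13+TGFβ replicate 1 and 3961 bp in replicate 2. COL1A1 (chromosome 17, 48261462 to 48278993), a chain of type I collagen, had 2652 and 2390 bp, then 1140 and 2161 bp. At both, the groups did not overlap, replicate 2 was nearer to siControl+TGFβ than replicate 1, and limma gave changes of −0.72 ± 0.63 and −0.64 ± 0.64 (SE, adjusted p = 0.797 in each). PCDHB8 (chromosome 5, 140557371 to 140560120), a clustered protocadherin of cell adhesion, had 2127 and 1926 bp, then 1656 and 2432 bp, so its groups overlapped. At equal covered length the differences at PAPLN and PCDHB8 turned to 2.30 and 2.07 on the log2 scale, and that at COL1A1 was −0.52.

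Epithelial and invasion genes showed the split between replicates more plainly. CDH1 (chromosome 16, 68771195 to 68869440), which encodes E-cadherin, had 1607 and 1606 bp in siControl+TGFβ, 0 bp in siPHF13+TGFβ replicate 1 and 1246 bp in replicate 2. MMP9 (chromosome 20, 44637547 to 44645200), a secreted matrix protease, had 2966 and 3564 bp, then 0 and 2467 bp. Both siPHF13+TGFβ libraries were lower at each, by very different amounts, and limma gave an adjusted p of 0.797 for both. MMP17 (chromosome 12, 132312938 to 132336328), a membrane-anchored protease, had 733 and 0 bp, then 0 bp in both, so it does not meet the rule for a lost promoter around its annotated 5′ end. SNAI1, SOX9, CDH2 and EPCAM had 0 bp of H3K27me3 in all 4 libraries.

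Both siPHF13+TGFβ libraries lay below both siControl+TGFβ libraries at 1802 promoters (8.95%), and above both at 92 (0.457%). Replicate 1 was below at 4950 (24.6%) and above at 187 (0.929%). Replicate 2 was below at 1866 (9.27%) and above at 2050 (10.2%). The set below in both is therefore nearly as large as the set below in replicate 2, and replicate 1 was lower at most promoters that carry the mark.

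The strength of a promoter's mark in untreated cells went along with whether it kept a peak in replicate 1. Promoters were sorted by their mean coverage in the siControl libraries without TGFβ, which the comparison does not use. Of 1354 promoters with at least 1000 and under 2000 bp there, 77.0% and 80.6% were marked in siControl+TGFβ, 22.3% in siPHF13+TGFβ replicate 1 and 80.9% in replicate 2. Of 845 with at least 3000 and under 4000 bp, 98.5% and 100% were marked, then 68.6% and 100%. Of 695 with 5000 bp or more, 100% and 100% were marked, then 98.7% and 100%. Replicate 1 therefore had peaks at almost all promoters that were widely covered in untreated cells, where its median coverage was 3388 bp against 5824 and 6001 bp for siControl+TGFβ. At the 12714 promoters with 0 bp in untreated cells, 0.566% and 0.503% were marked in siControl+TGFβ, against 0.142% and 0.409% in siPHF13+TGFβ. New marking was thus no more frequent in either siPHF13+TGFβ library than in siControl+TGFβ.

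**Figure D3:**
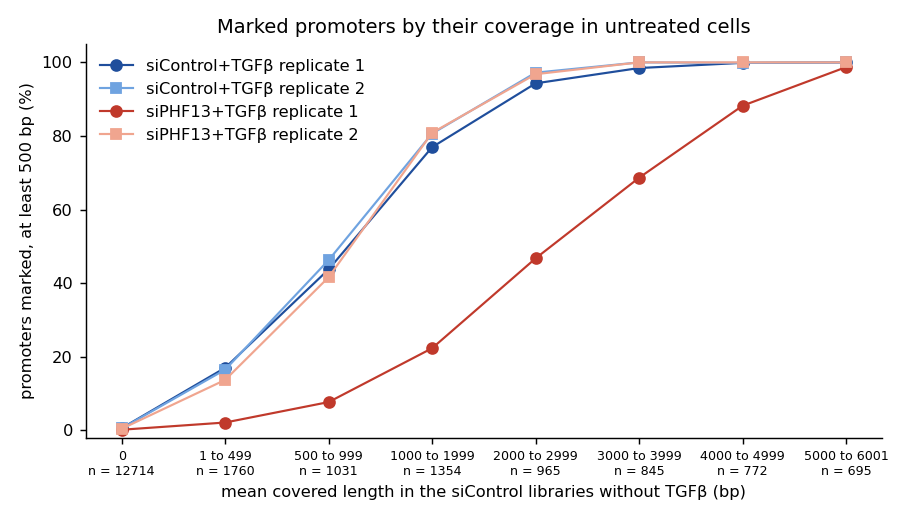
Percent of promoters marked in each TGFβ-treated library, by mean H3K27me3 coverage of the promoter (bp) in the siControl libraries without TGFβ; n is the number of promoters. The lines of siPHF13+TGFβ replicate 2 and of both siControl+TGFβ libraries run together, and replicate 1 stays under them until 98.7% at 5000 bp or more.

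The shape of the mark around starts was compared over the 3993 promoters marked in both untreated libraries. At 1 kb inside the gene, the share of promoters covered reached 31.2% in siPHF13+TGFβ replicate 1 and 66.6% in replicate 2, and in siControl+TGFβ the highest values were 65.3% and 67.9%. At 10 kb from the start on either side, 8.59% were covered in replicate 1 and 30.0% in replicate 2, against 28.1% and 31.3%. Relative to its own highest value, coverage at 10 kb was 27.5% in replicate 1 and 45.1% in replicate 2, against 43.1% and 46.1% in siControl+TGFβ. At the start itself, replicate 1 fell to 22.9%, while the other libraries had 61.8% to 62.0%. Replicate 1 thus held peaks near starts and fewer in the flanks, and replicate 2 did not differ from siControl+TGFβ beyond the spread of those libraries.

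**Figure D4:**
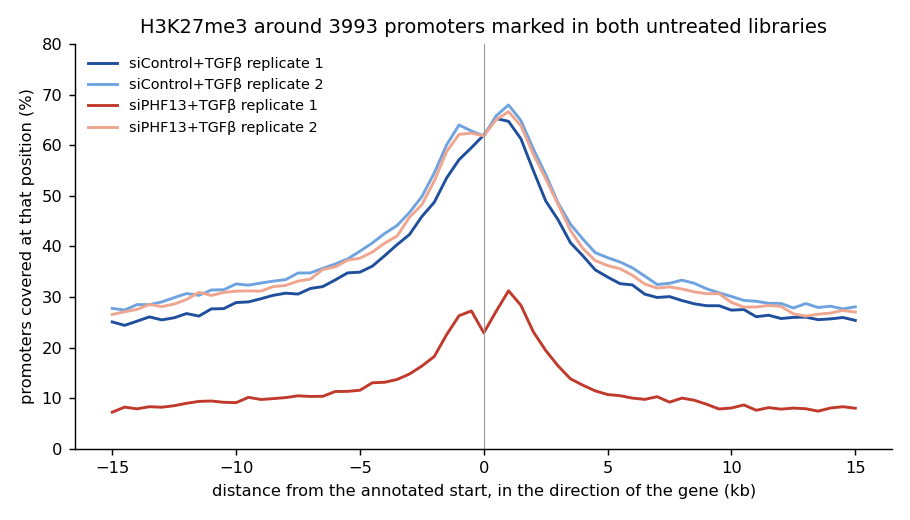
Percent of 3993 promoters covered by H3K27me3 peaks at each distance (kb) from the annotated start, for each TGFβ-treated library. Replicate 1 of siPHF13+TGFβ peaks at 31.2% and is at 8.59% 10 kb away, and the other lines peak between 65.3% and 67.9%.

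H3K4me3 and H3K27ac peaks of the same series were used to class promoters by another measurement. Of 2167 promoters with H3K4me3 in all 4 TGFβ-treated libraries and H3K27ac in neither siControl+TGFβ library, 80.9% and 80.6% were marked with H3K27me3 in siControl+TGFβ, against 59.9% and 80.2% in siPHF13+TGFβ. Of 10383 with both active marks, 5.61% and 6.35% were marked, then 2.46% and 6.02%. Of 5797 with no H3K4me3 in any of the 4 libraries, 33.2% and 33.7% were marked, then 14.4% and 32.8%. The log2 ratio of mean coverage between promoters with and without H3K4me3 was −0.47 and −0.51 in siControl+TGFβ, 0.26 in siPHF13+TGFβ replicate 1 and −0.49 in replicate 2. This ratio was higher in replicate 1 alone, where promoters with H3K4me3 had more coverage than those without (difference of the group means 0.37, pooled SD 0.38, exact permutation p = 0.667). At equal covered length the difference turned to −0.0882.

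Over gene lists, the place of replicate 1 in counts of marked promoters turned with the covered length used. As deposited it was the lowest library alone in 20 of 21 lists, and with every list shortened to the same covered length it was the highest alone in 14 and the lowest alone in 0. Of 90 genes that the study lists as poised and activated by TGFβ, 80 and 81 promoters were marked in siControl+TGFβ, 60 in siPHF13+TGFβ replicate 1 and 80 in replicate 2, and 0 were lost and 0 gained. At equal covered length these counts were 49 and 45 in siControl+TGFβ, 60 in replicate 1 and 44 in replicate 2. Mean covered length per promoter did not turn there. It was 2194 and 2230 bp in siControl+TGFβ, then 1519 and 2144 bp. The study chose this list on these samples, so it is not independent evidence of a direction. Both siPHF13+TGFβ libraries were lower at 32 of the 90 (35.6%) and higher at 0, against 8.95% and 0.457% of all promoters. A promoter with 0 bp in a siControl+TGFβ library cannot be lower. The 71 of the 90 that were marked in both untreated libraries were therefore also taken apart. Among these 71, replicate 2 was below both siControl+TGFβ libraries at 27 and above both at 15, against 28.4% below and 30.2% above among all 3993 such promoters. Their median difference between replicate 2 and siControl+TGFβ was −0.05 on the log2 scale, against 0.02 for all, and that of replicate 1 was −1.12 against −1.48.

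Counts of marked developmental regulators in replicate 2 lay near those of siControl+TGFβ. The HOX clusters, which set position along the body axis, had 14 and 12 of 39 promoters marked in siControl+TGFβ, then 7 and 11, with 0 lost and 0 gained. Other developmental transcription factor genes had 43 and 40 of 70 marked, then 27 and 45, again with 0 in either class. Of the 103 other homeobox genes 2 were lost (1.94%, against 0.412% of all promoters), IRX6 and PRRX2 (821 and 1112 bp in siControl+TGFβ). Among WNT ligands, Frizzled receptors and antagonists, 18 and 20 of 39 were marked, then 14 and 20, and 1 was lost (2.56%), the receptor gene FZD3 (599 and 811 bp). Among 73 axon guidance genes, 38 and 36 were marked, then 23 and 31, and SEMA6C and SEMA4C (631 and 870 bp) were lost (2.74%). Unmarked promoters cannot be lost, and these lists hold more marked promoters than the 25.2% and 25.7% of all genes marked in siControl+TGFβ.

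Regulators of EMT were marked only in part. Of 19 EMT transcription factor and epithelial regulator genes, 9 and 9 were marked in siControl+TGFβ, against 7 and 9 in siPHF13+TGFβ, and 10 had no peak, among them SNAI1, ZEB1, TWIST1 and GRHL2. SNAI2, a repressor of epithelial genes, had 2720 and 5076 bp, then 1478 and 5850 bp, and ZEB2, another such repressor, 6001 and 5844 bp, then 3977 and 5877 bp, both with overlapping groups. SNAI3 had 1844 and 3349 bp, then 628 and 584 bp, PRRX1, a mesenchymal homeobox gene, 2784 and 3385 bp, then 352 and 2286 bp, and KLF8 1757 and 1243 bp, then 0 and 588 bp. These 3 of 19 (15.8%) were lower in both siPHF13+TGFβ libraries, against 8.95% of all promoters, most of which carry no mark. ESRP1, an epithelial splicing regulator gene, was the member that was higher in both, with 5691 and 5446 bp and then 6001 and 6001 bp. None passed the limma test.

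Counts of marked matrix and adhesion genes in replicate 2 were close to those of siControl+TGFβ. Collagen, laminin and other matrix genes had 38 and 36 of 71 promoters marked in siControl+TGFβ, then 26 and 39. Matrix metalloproteinase, ADAMTS and TIMP genes had 23 and 22 of 46, then 12 and 25. Epithelial adhesion genes had 12 and 13 of 33, then 6 and 13, and mesenchymal and contractile genes 6 and 6 of 30, then 3 and 6. TGFβ and BMP pathway genes had 22 and 25 of 64, then 20 and 24. In these 5 lists 0 promoters were lost and 0 gained, where 0.412% and 0.0348% of all promoters were, so the counts do not set these lists apart.

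Counts of marked channel, receptor, lineage and olfactory receptor genes were lowest in replicate 1 as deposited and highest in it at equal covered length. Mean covered length at that setting was lowest in replicate 1 for potassium channel, neurotransmitter receptor and lineage genes, and not for olfactory receptor genes. Potassium channel genes had 55 and 57 of 86 promoters marked in siControl+TGFβ, then 38 and 54, and at equal covered length 30 and 32, then 38 and 26. Neurotransmitter receptor genes had 61 and 61 of 103, then 38 and 59, and at equal covered length 27 and 25, then 38 and 19. Markers of other lineages had 19 and 18 of 37, then 7 and 16, and at equal covered length 4 and 6, then 7 and 4. Of 414 olfactory receptor genes, a family with near-identical copies, 63 and 83 were marked, then 30 and 82. At equal covered length these were 10 and 16, then 30 and 14. OR1G1, OR10C1 and OR5P2 were lost (0.725%, against 0.412% of all promoters). Clustered protocadherin genes (2 and 2 of 53, then 1 and 4), chromosome 19 zinc finger genes (5 and 7 of 246, then 2 and 8) and Polycomb genes (7 and 5 of 39, then 4 and 6) were seldom marked.

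**Figure D5:**
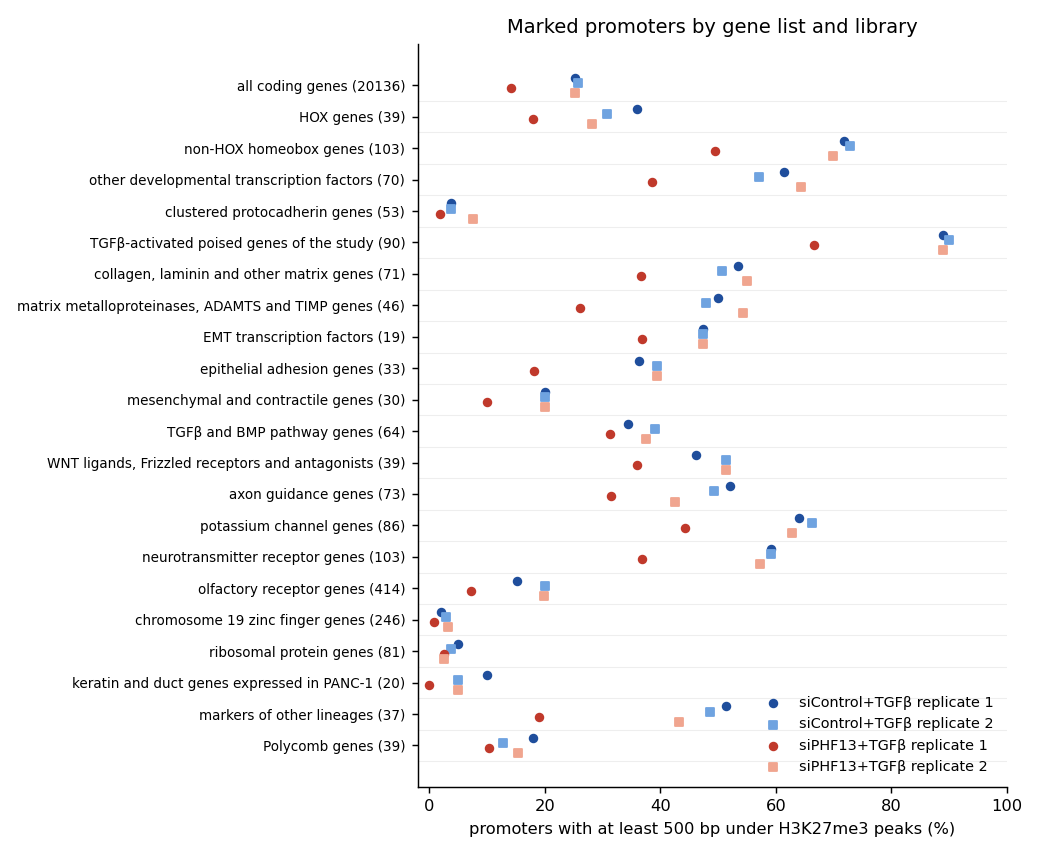
Percent of promoters with at least 500 bp under H3K27me3 peaks in each TGFβ-treated library, by gene list, with the number of genes in brackets. With the lists as deposited, siPHF13+TGFβ replicate 1 is the lowest point in 20 of the 21 lists, and at ribosomal protein genes both siPHF13+TGFβ libraries are at 2.47%. At equal covered length, which is not plotted, it is the highest alone in 14 lists and the lowest alone in 0.

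In gene bodies, several genes held a few kb of the mark in siControl+TGFβ and none in siPHF13+TGFβ. Of 4217 gene bodies with a mean of at least 1000 bp, limma called 0 lower (0%) and 0 higher (0%), with 45 lower and 0 higher at an unadjusted p under 0.05. Of the 4217 tested, 1242 were lower in all 4 pairs of libraries and 15 higher. The median limma change was −1.10 with all libraries and 0.05 without replicate 1, so the median was lower only with replicate 1 in the fit. ANKH (chromosome 5, 14704909 to 14871887), a pyrophosphate transporter gene, had 3371 and 2242 bp in siControl+TGFβ, while neither siPHF13+TGFβ library had any (0 bp). CACNA1G (chromosome 17, 48638076 to 48704835), a T-type calcium channel gene, had 4179 and 1331 bp, then 0 bp in both. RAB7A (2393 and 2111 bp), a GTPase of late endosomes, and ACY3 (3279 and 1524 bp), an aminoacylase gene, also had 0 bp in both. ENTREP2 had 34311 and 25822 bp, then 0 and 20042 bp, so its domain was missing from replicate 1 alone. The changes of these 5 were −4.40 to −4.83, each with an adjusted p of 0.836 in limma. Without replicate 2, 2768 of 4135 gene bodies were lower (66.9%) and 0 higher, and without replicate 1, 0 were called.

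The 5 named gene bodies that were higher in all 4 pairs had limma changes of 0.92 to 2.53. LRRFIP1 (chromosome 2, 238536230 to 238722325) had 0 and 1027 bp in siControl+TGFβ, against 1519 and 2236 bp in siPHF13+TGFβ. LAMA2 (chromosome 6, 129204283 to 129837711), a laminin chain gene, had 1046 and 1132 bp, then 2035 and 2257 bp. WBP2NL had 1475 and 203 bp, then 1590 and 3086 bp, and PARM1 502 and 460 bp, then 931 and 2370 bp. FAM47E-STBD1, a readthrough of neighbouring genes, had 1144 and 356 bp, then 1153 and 2417 bp. These covered at most a few kb of gene bodies of 50.4 to 630.4 kb, and each had an adjusted p of 0.836.

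Merged over the 4 libraries, peaks formed 162064 regions, of which 21940 had a peak in all 4. Lost in both siPHF13+TGFβ libraries were 7769 (4.79%), and gained in both were 1036 (0.639%). Replicate 1 alone had lost 28476 (17.6%) and gained 7828 (4.83%), and replicate 2 alone had lost 8720 (5.38%) and gained 26732 (16.5%). Here a loss needs a peak in both siControl+TGFβ libraries and a gain a peak in a single library. Losses and gains of 1 library therefore give no direction when set against each other. Regions with a peak numbered 88948 and 90959 in siControl+TGFβ, then 35036 and 88052. Lost regions were short, with a median of 958 bp, and so were gained ones, with 834 bp, against 5002.5 bp for regions present in all 4. A region present in all 4 joins peaks of more libraries than a lost or gained one. These lengths thus differ in part by construction. No lost or gained region reached 10 kb. In untreated cells, 25.3% of lost and 29.4% of gained regions had a peak in siControl replicate 1, and 79.4% and 75.6% in replicate 2. Over all regions these shares were 31.6% and 68.3%, and over regions present in all 4 libraries 90.1% and 99.5%. Of 29148 regions tested by limma, 0 were lower (0%) and 0 higher (0%), with 273 and 6 at an unadjusted p under 0.05. Without replicate 2, 16249 of 27021 regions were lower (60.1%) and 3 higher (0.0111%), and without replicate 1, 0 were called.

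The regions with the widest loss lay outside coding exons. The first, on chromosome 12 (94951217 to 94955375), was intergenic, 88958 bp from the start of TMCC3, and had 3844 and 3298 bp in siControl+TGFβ. The second, on chromosome 9 (134698617 to 134702597), was also intergenic, with 3292 and 3205 bp. The others were found within an intron of CNR2, over small RNA genes of chromosome 1 (24208513 to 24215128, 3015 and 5415 bp), in an intron of a noncoding gene on chromosome 7 (24429874 to 24433729, 2843 and 3089 bp) and between genes on chromosome 3 (127279491 to 127283017, 2802 and 2836 bp). All 5 had peaks in both untreated libraries.

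Gained regions were smaller. The widest was intergenic on chromosome X (134633366 to 134636133), with 1716 and 2438 bp in siPHF13+TGFβ and 1552 and 1343 bp in untreated cells. The next lay on chromosome 6 over an exon of SLC16A10, an amino acid transporter gene (111547535 to 111549881), with 1702 and 1990 bp. A region on chromosome 11 over an exon of TENM4, a teneurin of neural development (78565622 to 78567221), had 1275 and 1591 bp. The remaining 2 lay over an exon of a noncoding gene on chromosome 14 (76745105 to 76746994, 1532 and 1858 bp) and between genes on chromosome 11 (117833485 to 117835487, 1390 and 1514 bp). Of these 5, 4 had peaks in both untreated libraries and the chromosome 14 region in replicate 2 alone.

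Most broad domains held some peak in every library and were covered over a smaller part in replicate 1. Of 4393 regions of at least 10 kb, 4304 had a peak in all 4 libraries. The median share of such a domain under peaks was 77.6% and 85.5% in siControl+TGFβ, 23.8% in siPHF13+TGFβ replicate 1 and 84.3% in replicate 2. In replicate 1, 389 domains were covered over at least 50% of their length, against 4074 and 4352 in siControl+TGFβ and 4341 in replicate 2, while 88 had no peak. Single peaks of at least 10 kb numbered 1424 and 2107, then 98 and 2100. Over the summed length of the domains, the difference of the group means was −24.7 percentage points, the SD within groups being 27.5 (p = 0.667 by exact permutation). Leaving out replicate 1, it came to 2.49.

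Individual domains differed in how much replicate 1 retained. The domain over RBFOX3 on chromosome 17 (77272458 to 77454171), a neuronal splicing factor gene, was covered over 98.1% and 95.2% in siControl+TGFβ, 40.4% in siPHF13+TGFβ replicate 1 and 97.0% in replicate 2. That over TMEM132E (chromosome 17, 32846341 to 32982630) was covered over 94.1% and 94.7%, then 36.3% and 90.9%. That over PAX5 (chromosome 9, 36739702 to 36870333), a B cell factor gene, was covered over 94.0% and 94.5%, then 57.2% and 92.7%.

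Other wide domains were covered over most of their length in all 4 libraries. The widest, 207.7 kb on chromosome 19 (40048196 to 40255924) with CLC and the galectin genes LGALS13, LGALS14 and LGALS16, was covered over 97.4% and 99.3% in siControl+TGFβ and over 98.9% in siPHF13+TGFβ replicate 1, with replicate 2 between these values. Neighbouring domains held the interferon lambda genes (39683537 to 39798394, covered over 98.9%, 99.9%, 88.3% and 97.7% in the same order) and FCGBP (40338471 to 40452844). CLC, IFNL1, IFNL2 and FCGBP are 4 of the 10 kept promoters named, the first by alphabet among those with full coverage, each with all 6001 bp covered in all 4 libraries, and so were DIPK1C, FAM205C, FGF3, FRMPD1, FXYD6 and a gene with no symbol on chromosome 20. Over the chromosome 19 domain of the galectins, the highest fold enrichment of a peak lay between 2.65 and 2.79 in all 6 libraries, untreated ones included. Wide coverage on chromosome 11 (3444847 to 3628521, pseudogenes) and chromosome 8 (86726484 to 86841171, the REXO1L copies) also stood in all libraries, and both hold near-identical copies, so their reads are uncertain.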

How the data were processed

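Libraries were prepared by ChIP against H3K27me3 in PANC-1 cells. Per the submitters' processing notes, the tools were Trim Galore 0.4.1, Bowtie2 2.4.1, Picard, MACS2 2.2.7.1 and deepTools 3.5.0, on hg19. The authors called broad peaks for each library separately against input, and the deposited lists give positions, a fold enrichment over input and the −log10 of a q-value, with replicates not pooled. Only peaks that passed the caller are listed, so 0 bp means no peak, not no signal. Groups came from the labels. The members and gene lists were chosen with earlier results of these data known.

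Peaks of a library were merged, and covered bp were counted at promoters, gene bodies and intergenic sequence of GENCODE 44 on GRCh37. This used Python 3.11.15, numpy 2.4.6, pandas 2.3.3, scipy 1.17.1 and matplotlib 3.10.9. The merging was compared with that of bedtools 2.31.1 on simulated intervals. Single values were compared by exact two-sided permutation over libraries. Features were fitted with limma 3.58.1 in R 4.3.3 on log2(bp + 100), with a mean of at least 500 bp at promoters and 1000 bp at gene bodies and merged regions, and Benjamini-Hochberg adjustment over all features tested (threshold 0.05). On simulated data, 0% of promoters changed by 2 on the log2 scale were recovered at the spread of these libraries and 100% at a small spread, over 4911 promoters.

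Lost, gained and kept promoters were named by the lowest coverage in the group that held the mark (10 each, ties by symbol, 1 gene where starts lay within 3 kb), gene bodies by the size of the limma change (5 each way) among those moving the same way in all library pairs, regions by the same ranking as promoters (5 each), and list members where lost or gained. A fixed set of genes that the study examined was always given. Values of other list members were chosen after they were seen. Alternatives were list length, covered length, a −log10 q of at least 2, promoter width, thresholds, merging, pseudocount, filter, centring, the replicate block, and leaving out each library. The input libraries were not analysed here. The upstream sequence of 1 lost promoter is not reported here.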

Additional observations from a re-analysis of the deposited data

How the results depend on the processing

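Leaving out a library apart, 13 of 22 results held under all alternatives. They kept their direction and side of the threshold, or stayed within 1.5 times the count. The 13 include every limma count of features called lower or higher, and these were 0 throughout. As stated above, 0 calls do not show that promoters were unchanged, so these counts say little about stability. For values compared by permutation, p cannot fall under 0.333, so only their direction could change. With lists of equal covered length, the log2 difference was 4.18e-05 in all (fixed by construction), 0.0308 at other genes and 0.0554 at intergenic sequence, the promoter share differed by −1.74 points and the promoter class ratio by −0.0882, with 147 promoters gained, 23 lost and 279 regions lost. With lists of equal length, 23 promoters and 1691 regions were gained and 3206 regions lost. At a −log10 q of at least 2, 25 promoters were gained and 158 lost, and 289 regions gained and 1152 lost. Promoters of 1 kb either side gave 4 gained and 51 lost, at least 1 bp gave 26 and 259, and at least 1000 bp against under 100 bp gave 0 and 24. Regions with at least 500 bp gave 551 gained and 5043 lost, and merging across 3 kb gave 358 and 2522. The cause of these shifts was not tested. Of 405 recomputed differences at 45 named promoters, 126 moved by more than the SD.

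Leaving out 1 library at a time, log2 covered length ranged from −1.88 to 0.0806 in all, −1.45 to 0.0045 at promoters, −2.05 to 0.0668 in gene bodies, −1.88 to 0.12 at other genes and −1.84 to 0.0943 at intergenic sequence. Shares ranged from −0.44 to 2.93 points at promoters, −3.91 to −0.336 in gene bodies, −0.0295 to 0.387 at other genes and 0.383 to 1.02 at intergenic sequence. The promoter class difference ranged from −0.0038 to 0.75, wide domain coverage from −52.0 to 2.49 points and wide peaks from −1667.5 to 334.5. Counts ranged from 19 to 99 promoters gained, 108 to 1170 lost, 1845 to 26732 regions gained and 8720 to 36643 lost. Leaving out a library drops a condition of the rule, so none can fall below the 7, 83, 1036 and 7769 of all libraries. In limma, features called lower ranged from 0 to 1754 promoters, 0 to 2768 gene bodies and 0 to 16249 regions, and regions called higher from 0 to 3, with all calls made without siPHF13+TGFβ replicate 2.

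Replicate numbers are shared by the groups, but the labels tie them to nothing else, and deviations from the group means of the libraries numbered 1 correlated at 0.0140 over 4911 promoters. With the replicate block, limma called 0 promoters, 0 gene bodies and 0 regions, with 154, 238 and 971 lower and 4, 0 and 10 higher at an unadjusted p under 0.05. Depth is unknown, so the weak end of each list cannot be told apart from the depth of its library.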

Other observations

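Across 24 chromosomes, the share of a library's covered length overlapped between the groups on most. It was higher in both siPHF13+TGFβ libraries than in both siControl+TGFβ libraries on chromosomes 2, 3, 6 and 10. It was lower in both on chromosomes 12, 15, 16, 20 and 22. On chromosome 2 it was 8.68% and 9.02% in siControl+TGFβ, then 9.18% and 9.19%. On chromosome 6 it was 5.72% and 6.19%, then 6.69% and 6.30%. On chromosome 12 it was 4.781% and 4.745%, then 4.600% and 4.743%, so replicate 2 barely differed there. With 2 libraries in a group, such separation is common without any difference, and these differences were not tested.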
